A study of Mus musculus with 9 samples.

Results

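The 8 genes described here encode parts of the machinery that starts, carries out and restrains programmed cell death: the apoptosome scaffold Apaf1, the caspases Casp1, Casp4, Casp6, Casp8 and Casp9, and the inhibitor of apoptosis proteins (IAPs) Birc2 and Birc3. They were taken by name, and each was read from the brightest array feature annotated with that gene alone. Each had 1 such feature, so all 8 were measured, out of 22180 genes with a feature of their own. All 8 also passed the filter on dim genes, which kept 12792 genes whose signal exceeded the median of the array on at least 3 of the 9 arrays.

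RNA came from regulatory T cells (Tregs, Foxp3-expressing T cells that restrain immune responses) of the small and large intestinal lamina propria of C57BL/6 mice. There were 3 Y3/CD103-/- arrays, 3 Y3 arrays and 3 wild-type (WT) arrays. Y3/CD103-/- mice carry Y3 and lack CD103, the integrin αE chain encoded by Itgae, Y3 mice carry Y3 alone, and WT mice carry neither. The labels do not define Y3, and the series title names IL-2Rβ, a receptor chain through which Tregs sense IL-2. All 3 genotypes share the red fluorescent reporter linked to Foxp3, by which the cells were sorted. No label gives age, sex or pooling of animals, and no group lacked CD103 alone. Since nothing in the labels says that replicates were separate mice, p-values measure the spread between these arrays, which may be technical.

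Caspases are proteases that are made as inactive precursors. In the mitochondrial pathway, released cytochrome c lets Apaf1 assemble into the apoptosome, a wheel-shaped complex that activates the initiator caspase Casp9. Death receptors activate Casp8 instead, and effector caspases such as Casp6 then cut cellular proteins. Casp1 and Casp4 (also called Casp11 in the mouse) are inflammatory caspases: Casp1 is activated in inflammasomes and Casp4 by intracellular lipopolysaccharide, and both can open gasdermin D pores. Birc2 (cIAP1) and Birc3 (cIAP2) are ubiquitin ligases that act at TNF receptors, where they shield cells from Casp8-driven death and hold down the kinase of non-canonical NF-kB signalling. Tregs depend on IL-2 for their survival.

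Apaf1, Casp4 and Birc2 rose in both Y3 genotypes against WT, and the other 5 genes did not pass in any comparison (limma, adjusted p under 0.05 over all genes tested). The calls of Casp4 and Birc2 in Y3/CD103-/- were lost with any 1 array left out, and in Y3 all 3 calls were lost without Y3 array 1 or Y3 array 3. In Y3/CD103-/- against WT, 3 of the 8 rose and 0 fell, where 0.836% of all genes tested passed, 0.555% rising and 0.281% falling. In Y3 against WT the counts were again 3 and 0, where 0.79% passed, 0.618% rising and 0.172% falling. Both comparisons share the WT arrays, and the 8 genes were assembled with earlier results of these data known. Between Y3/CD103-/- and Y3, 0 of the 8 passed in limma, and 1 gene of all tested did (0.00782%), Itgae.

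The start regions of the 3 genes that rose, and of the chromosomal neighbours Casp1 and Birc3, are shown because 1 member of each neighbouring pair rose while the other did not pass. Each is 300 bases from RefSeq (GRCm38.p6), 250 before and 50 after an annotated gene start, written 5′ to 3′ on the gene's own strand. Capitals mark matches to the NF-kB consensus.
Apaf1 (chr10:91082694-91082993, minus strand): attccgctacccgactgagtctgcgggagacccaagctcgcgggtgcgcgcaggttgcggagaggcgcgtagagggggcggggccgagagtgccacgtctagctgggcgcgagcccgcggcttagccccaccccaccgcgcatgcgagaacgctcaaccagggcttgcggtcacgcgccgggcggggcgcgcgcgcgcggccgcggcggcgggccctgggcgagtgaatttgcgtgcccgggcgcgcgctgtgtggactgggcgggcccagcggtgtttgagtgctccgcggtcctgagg
Casp4 (chr9:5308599-5308898, plus strand): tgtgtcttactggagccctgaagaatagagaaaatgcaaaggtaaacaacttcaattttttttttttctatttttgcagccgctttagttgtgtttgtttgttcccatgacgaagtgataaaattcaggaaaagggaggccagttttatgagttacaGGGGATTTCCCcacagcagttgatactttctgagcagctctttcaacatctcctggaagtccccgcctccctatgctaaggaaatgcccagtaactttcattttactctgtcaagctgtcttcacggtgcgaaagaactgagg
Casp1 (chr9:5298267-5298566, plus strand): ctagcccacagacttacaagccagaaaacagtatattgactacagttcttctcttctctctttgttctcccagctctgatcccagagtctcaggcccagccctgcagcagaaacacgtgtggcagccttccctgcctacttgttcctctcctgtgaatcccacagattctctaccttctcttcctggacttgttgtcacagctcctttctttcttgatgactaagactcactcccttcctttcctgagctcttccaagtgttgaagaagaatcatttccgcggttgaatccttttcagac
Birc2 (chr9:7837008-7837307, minus strand): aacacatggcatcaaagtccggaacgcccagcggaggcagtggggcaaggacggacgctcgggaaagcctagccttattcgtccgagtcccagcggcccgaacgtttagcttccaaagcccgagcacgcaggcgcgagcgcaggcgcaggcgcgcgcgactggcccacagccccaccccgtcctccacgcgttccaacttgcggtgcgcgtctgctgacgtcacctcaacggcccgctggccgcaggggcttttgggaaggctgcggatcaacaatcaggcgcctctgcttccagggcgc
Birc3 (chr9:7873121-7873420, minus strand): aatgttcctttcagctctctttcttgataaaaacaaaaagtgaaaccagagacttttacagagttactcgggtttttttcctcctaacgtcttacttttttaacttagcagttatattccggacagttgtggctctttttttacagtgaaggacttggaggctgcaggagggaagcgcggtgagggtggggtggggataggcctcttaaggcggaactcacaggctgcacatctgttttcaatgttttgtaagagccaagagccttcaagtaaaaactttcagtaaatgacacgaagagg

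The window of Casp4 held a pair of overlapping matches to the NF-kB consensus, GGGGATTTCC and GGGATTTCCC, which begin 93 and 92 bases before the start. Matches on either strand were found in 4.51% of all 32851 windows in the table, and in no window of the other 7 genes. Casp4 and Birc2 each had 2 annotated starts, and their second windows gave the same answer. The STAT pattern TTCNNNGAA (8.3% of all windows), the E2F pattern TTTNGCGC (1.38%) and the T-box pattern AGGTGTGA (1.28%), searched on both strands, were in none of the 10 windows of the 8 genes. A match is a string of letters and not a measured site. In base composition the starts of the 3 genes were unlike: G and C made up 74.7% of the Apaf1 window and 67.0% of the Birc2 window, but 42.0% of the Casp4 window, against a median of 52.7% over all windows. Casp1 had 48.0% and Birc3 43.0%.

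The labels were checked on the targeted genes. Itgae stood at log2 6.52 on average in Y3/CD103-/-, against 9.32 in Y3 and 7.93 in WT. Markers of T cells and Tregs, 7 genes measured of a list of 8, had an even list mean, between 9.14 and 9.30 on the 9 arrays. Single genes were less even, with 4 higher and 3 lower than WT in each Y3 genotype. Il2ra stood -0.86 log2 from WT in Y3/CD103-/- (limma adjusted p = 0.0258) and -0.65 in Y3 (0.0790). Ikzf2 stood 0.38 (0.238) and 0.35 (0.228) from WT in the same order. Il2rb, the gene of IL-2Rβ, stood at 8.16 in Y3/CD103-/-, 8.15 in Y3 and 9.19 in WT (limma adjusted p = 0.0590 and 0.0565 against WT). Foxp3 was among the Treg markers, at a mean of 9.55 in Y3/CD103-/-, 9.52 in Y3 and 9.38 in WT. Signal of other cells was not even. The mean of 15 epithelial genes ranged over 4.04 to 5.69 in Y3/CD103-/-, 4.09 to 4.55 in Y3 and 5.12 to 6.30 in WT. That of 14 macrophage, monocyte and dendritic cell genes ranged over 4.41 to 4.60, 3.95 to 4.12 and 4.25 to 4.86 in the same order. Of the 14 epithelial genes tested, 14 were lower in both Y3 genotypes and 0 passed in limma (at an unadjusted p under 0.05, 3 were lower in Y3/CD103-/- and 6 in Y3, beside 5.35% and 3.6% of all genes). Among all markers read, Il2ra fell in Y3/CD103-/-, H2-Aa fell in Y3 and Gzma, a cytotoxic granule enzyme, rose in both against WT. The part of these cells in the results was not tested. Array medians over all features were alike, between log2 3.15 and 3.23. The spread was less even, with an SD over features of 1.87 on Y3 array 1 and 1.88 on Y3 array 3. On the other arrays it was 1.70 to 1.77. In bulk RNA from a sort, a change in the number of contributing cells and a change of RNA per cell cannot be told apart.

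**Figure D1:**
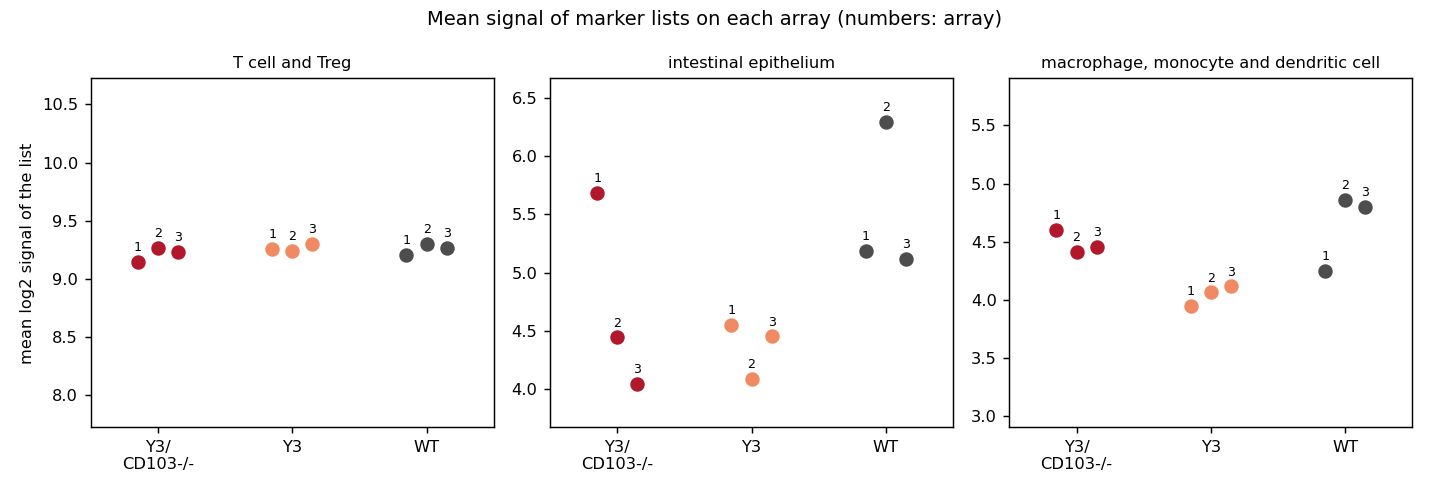
Mean log2 signal of 3 marker lists (vertical axes of equal span) on each of the 9 arrays, by genotype, with array numbers beside the points. The T cell and Treg mean lies between 9.14 and 9.30 on every array, while the epithelial mean is highest on WT array 2 (6.30) and the myeloid mean lowest on the 3 Y3 arrays.

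Apaf1 had the largest difference from WT among the 8 genes in both genotypes. Its log2 signal was 7.38, 7.46 and 7.65 on Y3/CD103-/- arrays 1 to 3, 7.35, 7.17 and 7.50 on the Y3 arrays and 5.82, 5.75 and 6.28 on the WT arrays. Every array of both Y3 genotypes lay above every WT array, by at least 0.88 log2. Apaf1 rose 2.91-fold in Y3/CD103-/- against WT (log2 1.54 ± 0.18 (SE), 95% interval 1.14 to 1.94, limma adjusted p = 0.00498). In Y3 against WT it rose 2.61-fold (1.39 ± 0.18, 0.98 to 1.79, adjusted p = 0.0118). Between Y3/CD103-/- and Y3 the groups overlapped, and the log2 difference of 0.16 had an interval of -0.25 to 0.56 (adjusted p = 0.804).

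Casp9, the initiator that Apaf1 activates, did not pass in either comparison with WT. Its signal was dim, above the median of the array on 7 of 9 arrays. It read 3.57, 3.35 and 3.67 in Y3/CD103-/-, 3.64, 3.67 and 3.44 in Y3 and 3.69, 3.08 and 2.82 in WT, and WT array 1 was the highest of the 9. The difference was 0.33 log2 in Y3/CD103-/- (interval -0.15 to 0.81, adjusted p = 0.558) and 0.38 in Y3 (-0.10 to 0.86, adjusted p = 0.391), and both upper bounds lay below the lower bounds of Apaf1. Taken as a ratio within each array, Apaf1 minus Casp9 averaged 3.96 ± 0.16 (SD, n = 3) in Y3/CD103-/-, 3.76 ± 0.28 in Y3 and 2.75 ± 0.67 in WT. No array of either Y3 genotype overlapped a WT array in this ratio, but the separation was bare. The lowest Y3 array stood at 3.50 and the highest WT array at 3.46. That WT array was array 3, where Casp9 had its lowest reading (2.82). The exact two-sided permutation test gave p = 0.1 against WT for each, the smallest value that 3 against 3 arrays allow (0.15 after Benjamini-Hochberg adjustment over the 9 such ratios computed).

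Casp8, which death receptors activate, did not pass in either comparison with WT. It read 6.64, 6.46 and 6.58 in Y3/CD103-/-, 6.68, 6.50 and 6.98 in Y3 and 6.76, 6.47 and 6.28 in WT, and all groups overlapped. The log2 difference from WT was 0.06 in Y3/CD103-/- (interval -0.34 to 0.46, adjusted p = 0.924) and 0.21 in Y3 (-0.18 to 0.61, adjusted p = 0.564). Its inhibitor Cflar, a caspase-like protein without activity, stood 0.13 log2 above WT in Y3/CD103-/- (limma adjusted p = 0.765) and 0.24 above it in Y3 (0.450).

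Casp6, an effector caspase, varied more within WT than between genotypes. It read 3.49, 3.27 and 3.91 in Y3/CD103-/-, 3.98, 3.89 and 4.28 in Y3 and 3.51, 4.82 and 3.68 in WT. The high WT value is that of array 2, which also had the highest epithelial list mean of the 9 arrays (6.30). Y3/CD103-/- array 1 had the second highest epithelial mean (5.69) and a Casp6 value of 3.49. The part of epithelial RNA in the Casp6 signal was not tested. The difference from WT was -0.45 log2 in Y3/CD103-/- (interval -1.14 to 0.24, adjusted p = 0.583) and 0.04 in Y3 (-0.65 to 0.74, adjusted p = 0.954), the widest intervals of the 8 genes. Without WT array 2 the Y3 difference was 0.45 log2 and did not pass (adjusted p = 0.360).

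**Figure D2:**
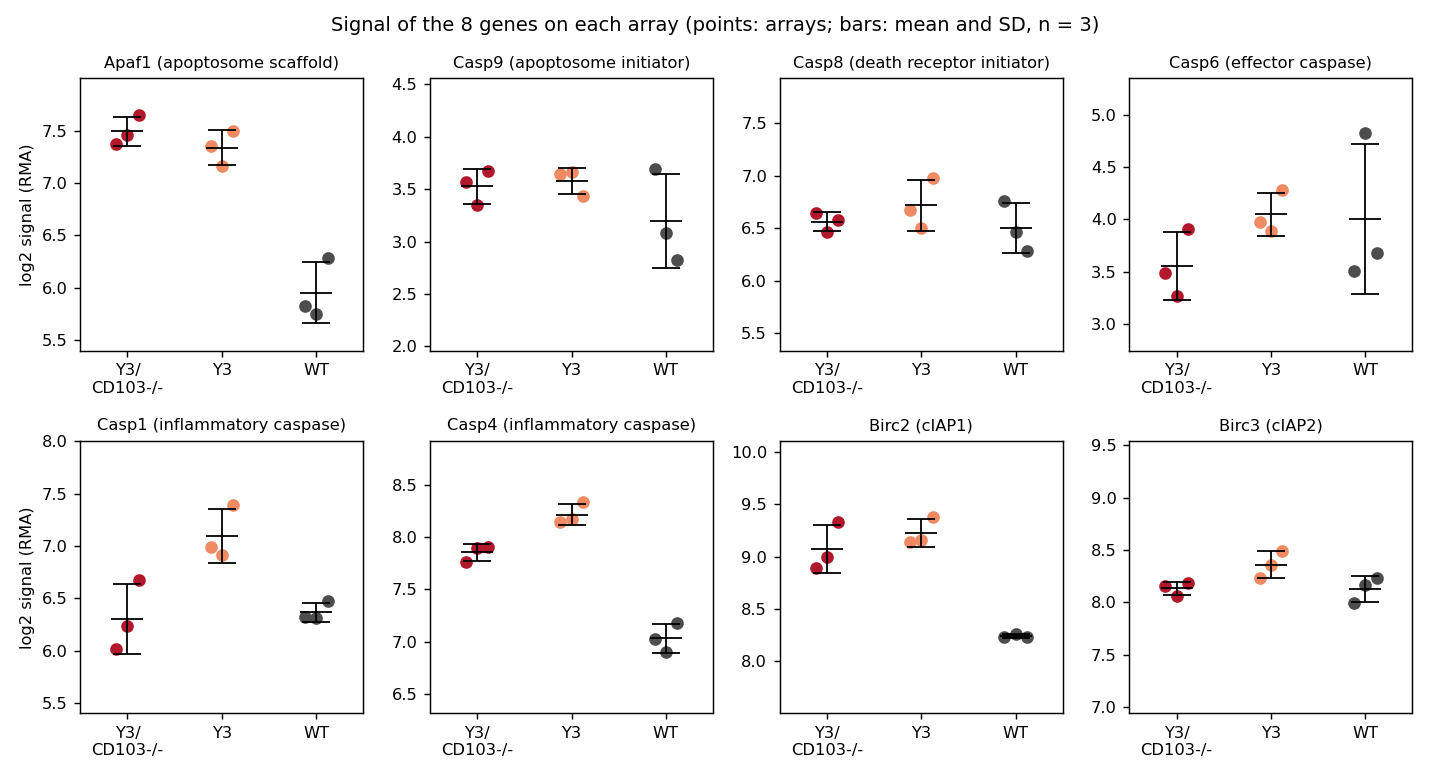
Log2 signal (RMA) of the 8 genes, 1 panel each, on the 3 arrays of each genotype (points), with mean and SD (bars, n = 3). The vertical axes have equal spans. Apaf1, Casp4 and Birc2 have all 6 arrays of the Y3 genotypes above the 3 WT arrays, and Casp1 has its 3 Y3 arrays above all others.

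Among the inflammatory caspases, Casp4 passed against WT in both genotypes and Casp1 in neither. Casp4 read 7.76, 7.90 and 7.90 in Y3/CD103-/-, 8.14, 8.17 and 8.33 in Y3 and 7.03, 6.90 and 7.17 in WT. The 3 groups did not overlap, with Y3 highest, Y3/CD103-/- between and WT lowest. Casp4 rose 1.76-fold in Y3/CD103-/- (log2 0.82 ± 0.15 (SE), 95% interval 0.49 to 1.14, limma adjusted p = 0.0321) and 2.26-fold in Y3 (1.18 ± 0.15, 0.85 to 1.50, adjusted p = 0.00931). The step between Y3/CD103-/- and Y3, -0.36 log2 (interval -0.69 to -0.03), did not pass over all genes tested (adjusted p = 0.469).

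Casp1 lies beside Casp4 on chromosome 9. It read 6.01, 6.23 and 6.67 in Y3/CD103-/-, 6.99, 6.91 and 7.39 in Y3 and 6.32, 6.31 and 6.47 in WT. The Y3 arrays lay above all other arrays, and Y3/CD103-/- and WT overlapped. In Y3 against WT the difference was 0.73 log2 (interval 0.29 to 1.17), which did not pass (adjusted p = 0.117), and in Y3/CD103-/- against WT it was -0.06 (-0.50 to 0.38, adjusted p = 0.933). Y3/CD103-/- against Y3 differed by -0.79 (-1.23 to -0.35), the largest difference of the 8 genes in that comparison, and did not pass either (unadjusted p = 0.00235, limma adjusted p = 0.308). The Y3 difference of Casp1 passed when the variance was modelled with a trend on signal (adjusted p = 0.0410). Myeloid cells also express Casp1, and their marker mean was lowest on the Y3 arrays (3.95 to 4.12). Of the 12 myeloid genes tested, 11 were lower in Y3 than in WT and 1, Cd68, was higher (6.17 against 5.40). Their part in the Casp1 signal was not tested.

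The ratio of Casp4 to Casp1 within an array was highest in Y3/CD103-/-, at 1.55 ± 0.28 log2 (SD, n = 3), against 1.12 ± 0.16 in Y3 and 0.67 ± 0.07 in WT. Both Y3 genotypes lay wholly above WT in this ratio (exact permutation p = 0.1, adjusted 0.15), and Y3/CD103-/- overlapped Y3 (exact permutation p = 0.2, adjusted 0.257). Of the 10 tested genes nearest to the Casp1 and Casp4 pair on the chromosome, evenly from both sides, 0 passed in limma in any comparison, where at most 0.836% of all genes passed. Their median difference in Y3 was 0.25 log2, beside 0.15 for all genes, with a range of -1.60 to 0.58. The lowest was Mmp13, a matrix metalloproteinase gene (adjusted p = 0.0513), named after its value was seen.

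Of the 2 cellular IAPs, Birc2 rose and Birc3 did not pass. Birc2 read 8.89, 8.998 and 9.33 in Y3/CD103-/-, 9.14, 9.16 and 9.37 in Y3 and 8.24, 8.26 and 8.23 in WT. The WT arrays lay within 0.03 log2 of each other and below all 6 others. Birc2 rose 1.78-fold in Y3/CD103-/- (log2 0.83 ± 0.16 (SE), 95% interval 0.48 to 1.18, limma adjusted p = 0.0447) and 1.97-fold in Y3 (0.98 ± 0.16, 0.63 to 1.33, adjusted p = 0.0225). Y3/CD103-/- and Y3 overlapped, with a difference of -0.15 (interval -0.50 to 0.20, adjusted p = 0.781).

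Birc3, the neighbouring gene, read 8.15, 8.07 and 8.19 in Y3/CD103-/-, 8.23, 8.36 and 8.49 in Y3 and 7.99, 8.16 and 8.23 in WT. Its lowest Y3 array was barely above its highest WT array. The difference was 0.01 log2 in Y3/CD103-/- (interval -0.32 to 0.33, adjusted p = 0.992) and 0.23 in Y3 (-0.09 to 0.55, adjusted p = 0.443), so the upper bounds lay below the lower bound of Birc2 in each comparison. Birc2 minus Birc3 within an array averaged 0.94 ± 0.20 log2 (SD, n = 3) in Y3/CD103-/-, 0.86 ± 0.05 in Y3 and 0.11 ± 0.12 in WT, with no overlap between WT and the others (exact permutation p = 0.1 for each, adjusted 0.15). The 10 tested neighbours of this pair, 3 of which are also among those of Casp1 and Casp4, had a median difference in Y3 of 0.03 log2 and a range of -1.60 to 0.61, and 0 passed in limma.

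**Figure D3:**
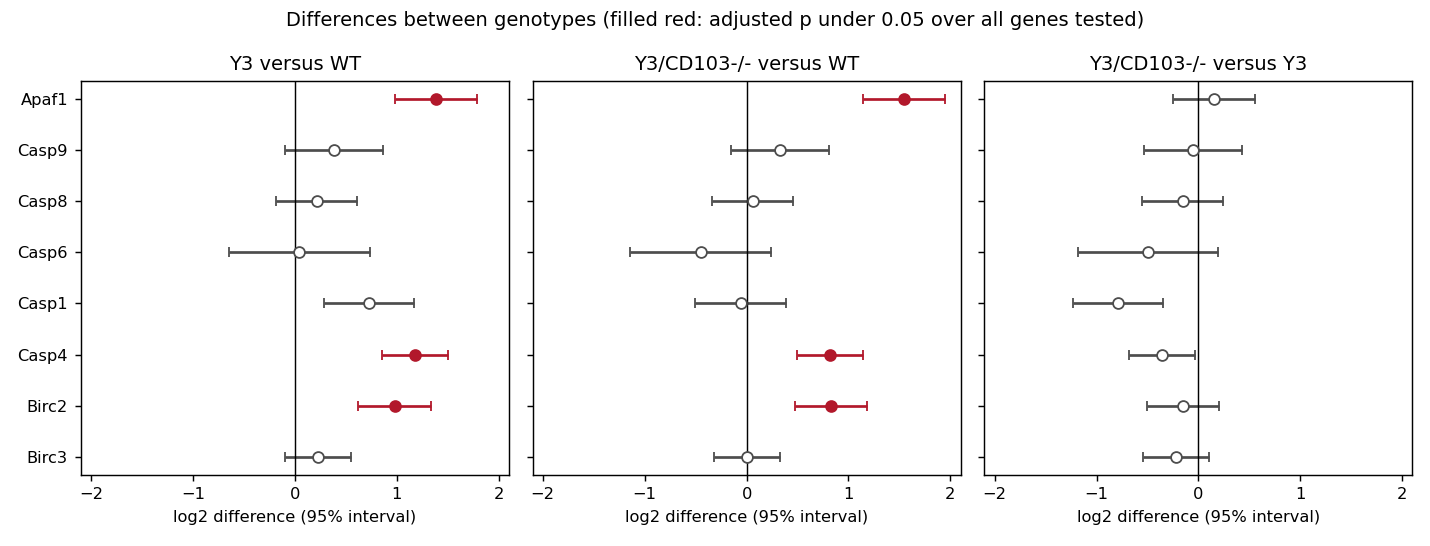
Log2 differences of the 8 genes (points) with 95% intervals from limma, for each Y3 genotype set against WT and for Y3/CD103-/- set against Y3. Filled red points (Apaf1, Casp4 and Birc2 in both comparisons with WT) have an adjusted p under 0.05 over all 12792 genes, and no gene of the 8 passes between Y3/CD103-/- and Y3.

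The median difference of the 8 was 0.19 log2 in Y3/CD103-/- and 0.56 in Y3, beside 0.04 and 0.15 for all genes tested. Y3/CD103-/- arrays lay wholly above WT for 3 of the 8 and wholly below for 0, beside 10.7% and 6.68% of all genes. Y3 arrays lay wholly above WT for 5 and wholly below for 0, beside 19% and 4.93%. Y3/CD103-/- arrays lay wholly below Y3 for 3 (Casp1, Casp4 and Birc3) and wholly above for 0, beside 14.4% and 4.11%. At an unadjusted p under 0.05, Casp1 and Casp4 were lower in Y3/CD103-/- than in Y3, 2 of the 8 beside 8.12% of all genes. In that comparison Casp9 differed by -0.05 log2 (interval -0.53 to 0.43), Casp8 by -0.16 (-0.55 to 0.24), Casp6 by -0.50 (-1.19 to 0.20) and Birc3 by -0.22 (-0.55 to 0.10), with limma adjusted p from 0.611 to 0.959.

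The upward shift of all genes in Y3 depended on which scaling was used. Of the 101 genes called in Y3, 79 rose and 22 fell. Centring each array on the median of all its features kept the shift, with 84 rising and 24 falling (median difference 0.15 log2). Quantile normalization gave 46 and 32 (median 0.04). Centring each array on its tested genes, which evens their medians by construction, gave 46 and 54 (median -0.02). Apaf1, Casp4 and Birc2 rose under each of these scalings. After centring on tested genes they stood at 1.22 log2 (limma adjusted p = 0.0178), 1.01 (0.0178) and 0.81 (0.0433) in Y3.

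How firmly each rise held differed between the 3 genes. In Y3/CD103-/- against WT, Apaf1 passed with any 1 of the 9 arrays left out (range of limma adjusted p from 0.00403 to 0.0305). Casp4 (0.0516 to 0.119) and Birc2 (0.0636 to 0.147) passed in 0 of the 9 such fits, while their differences stayed within 0.75 to 0.89 and 0.70 to 0.92 log2. In Y3 against WT, Apaf1 and Casp4 passed in 7 fits, failing without Y3 array 1 (limma adjusted p = 0.0815 and 0.0508) and without Y3 array 3 (0.0939 and 0.0823). Birc2 passed in 4, failing without any 1 of the 3 Y3 arrays (0.0641 to 0.145), WT array 2 (0.0639) or WT array 3 (0.0621). Y3 arrays 1 and 3 were the most alike of any replicate pair, with a median absolute difference of 0.16 log2 over genes against 0.22 to 0.28 for the others. Averaged as 1 sample, they left adjusted p at 0.0781 for Apaf1, 0.0561 for Casp4 and 0.117 for Birc2, at differences of 1.34, 1.17 and 0.96 log2.

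**Figure D4:**
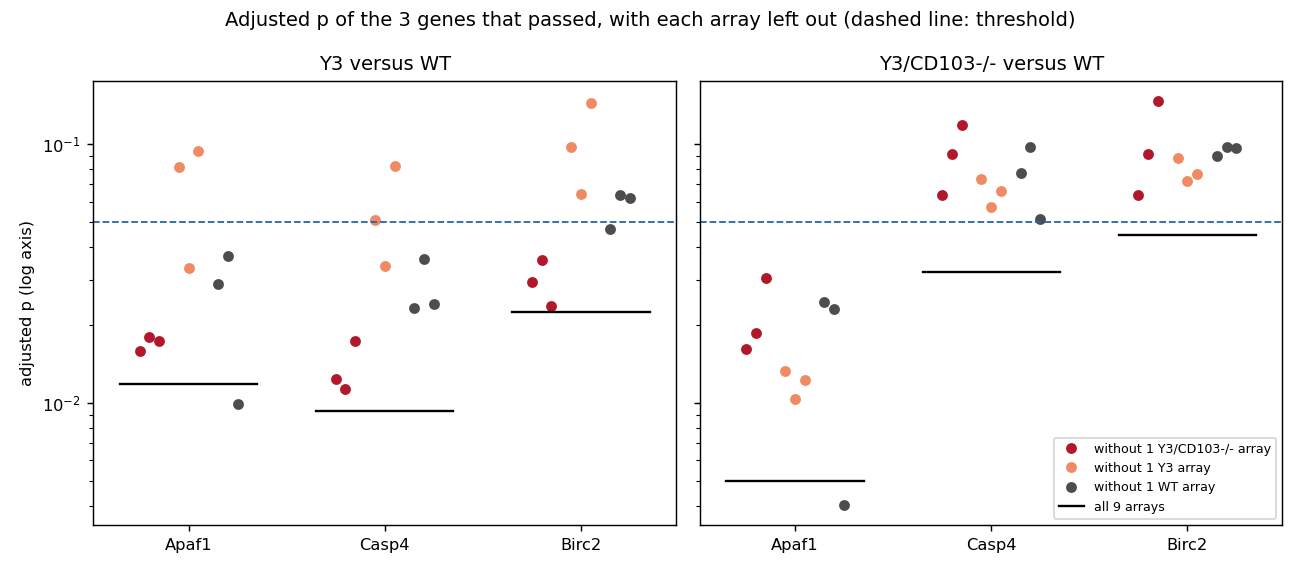
Adjusted p (log axis) of Apaf1, Casp4 and Birc2 against WT with all 9 arrays (black lines) and with each array left out (points, coloured by the genotype of the array removed). Points above the dashed line at 0.05 did not pass. All 9 points of Apaf1 in Y3/CD103-/- lie below it.

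The rest of the cell death pathway was described from 70 further genes in 7 groups, of which 53 were tested. In Y3/CD103-/- against WT, 1 rose and 0 fell, and an unadjusted p under 0.05 was reached upward by 7 and downward by 5, beside 7.9% and 5.35% of all genes. In Y3 against WT, 0 passed in limma, and such a p was reached upward by 6 and downward by 5, beside 13.4% and 3.6%. The 7 upward in Y3/CD103-/- were Bak1, Diablo, Fas, Fasl, Nfkb2, Relb and Traf1. The 6 upward in Y3 were Diablo, Fas, Fasl, Gsdmd, Nfkb2 and Tnfsf10. The 5 downward were Naip5, Naip6, Bid, Tnfrsf10b and Mlkl in Y3/CD103-/-, and Naip6, Bid, Tnfrsf10b, Mlkl and Il1b in Y3. The median difference of the 53 was 0.10 log2 in Y3/CD103-/- and 0.21 in Y3, beside 0.04 and 0.15 for all genes. Between Y3/CD103-/- and Y3, 0 of the 53 passed in limma, and an unadjusted p under 0.05 was reached upward by 2 and downward by 2, beside 1.78% and 8.12% of all genes. Upward were Il1b (1.49 log2, limma adjusted p = 0.308) and Nfkb2 (0.41, 0.441), and downward Bcl2 (-0.62, 0.343) and Htra2 (-0.43, 0.455). Cycs, which encodes the cytochrome c that triggers Apaf1, stood -0.02 log2 from WT in Y3/CD103-/- (limma adjusted p = 0.965) and 0.11 in Y3 (0.722). Bid, also of the mitochondrial group, stood -0.44 (0.324) and -0.47 (0.236) from WT in the same order. Bak1, of the same group, stood 0.53 (0.216) and 0.21 (0.563) from WT. Xiap, the IAP that binds and blocks Casp9 and effector caspases, differed by 0.14 (0.808) and 0.42 (0.315). Of the 8 other IAPs and IAP antagonists tested, 0 passed in limma. Naip6, an IAP family gene with close relatives that its probes may not separate, was wholly below WT in Y3/CD103-/- (-0.96 log2, adjusted p = 0.0669) and in Y3 (-0.93, 0.0753). Diablo, which encodes an IAP antagonist released from mitochondria, differed by 0.53 (0.374) in Y3/CD103-/- and 0.68 (0.202) in Y3, with overlapping groups. Naip5 differed by -0.61 in Y3/CD103-/- (0.182) and -0.24 in Y3 (0.539).

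The 1 gene that rose was Nfkb2, the precursor subunit of non-canonical NF-kB, whose processing cIAPs restrain. It read 7.48, 7.37 and 7.35 in Y3/CD103-/-, 7.13, 6.94 and 6.88 in Y3 and 6.74, 6.40 and 6.56 in WT, so that the 3 groups did not overlap. The rise in Y3/CD103-/- was 0.83 ± 0.15 log2 (SE, limma adjusted p = 0.0362), and the difference of 0.42 in Y3 did not pass (0.218). Unlike Casp4, its highest group was Y3/CD103-/-. Without any 1 of the 9 arrays it did not pass (adjusted p from 0.0538 to 0.106).

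Among 12 death receptor and adaptor genes, 3 were higher and 2 lower in Y3 at an unadjusted p under 0.05. None of the 12 passed in limma, and over all genes the shares were 13.4% and 3.6%. Higher were the death receptor Fas (1.07 log2, limma adjusted p = 0.0555), its ligand Fasl (0.81, 0.0953) and Tnfsf10, which encodes the death ligand TRAIL (1.08, 0.0790). The TRAIL receptor Tnfrsf10b (-0.80, 0.107) and Mlkl, the pore-forming protein of necroptosis (-0.56, 0.289), were lower. In Y3/CD103-/- the values were 0.75 for Fas (0.167), 0.57 for Fasl (0.245), 0.55 for Tnfsf10 (0.379), -0.95 for Tnfrsf10b (0.0685) and -0.92 for Mlkl (0.133). At an unadjusted p under 0.05, 2 of the 12 were higher there (Fas and Fasl) and 2 lower (Tnfrsf10b and Mlkl). Over all genes the shares in Y3/CD103-/- were 7.9% and 5.35%. Fas read 6.55, 6.87 and 7.37 in Y3/CD103-/-, 7.08, 7.42 and 7.23 in Y3 and 5.92, 6.27 and 6.35 in WT. Both Y3 genotypes lay wholly above WT, as did 10.7% of all genes in Y3/CD103-/- and 19% in Y3. Of 5 inflammasome and pyroptosis genes tested, Gsdmd, the pore protein that Casp1 and Casp4 cleave, was higher in Y3 (0.93 log2, adjusted p = 0.154), with WT at 5.36, 6.44 and 5.18. Il1b, a substrate of Casp1, read 6.46, 6.26 and 5.40 in Y3/CD103-/-, 4.48, 4.63 and 4.54 in Y3 and 5.59, 5.83 and 6.82 in WT. Its difference was -1.53 log2 in Y3 against WT (limma adjusted p = 0.0665) and 1.49 in Y3/CD103-/- against Y3 (0.308), and Il1b is a product of myeloid cells, whose list mean was also lowest in Y3. The part of these cells in the Il1b signal was not tested.

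**Figure D5:**
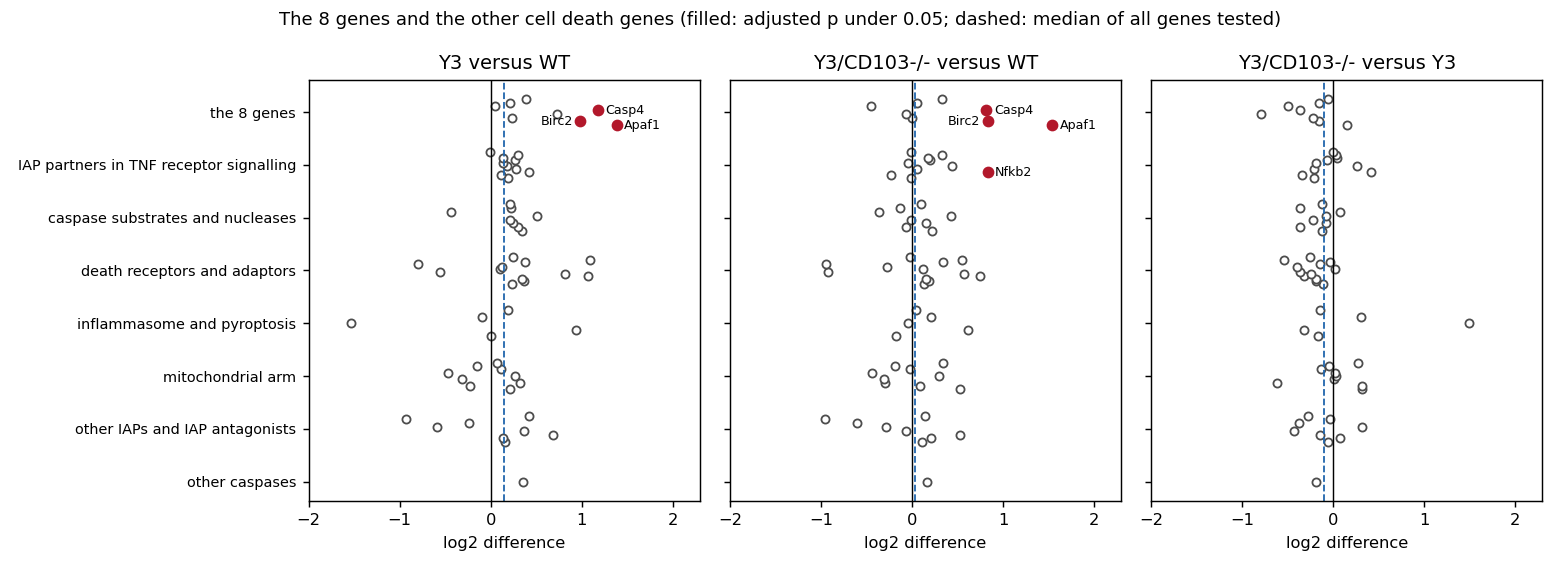
Log2 differences of the 8 genes and of 53 other cell death genes in 7 groups (rows), in the 3 comparisons. Filled points passed at an adjusted p under 0.05, dashed lines are the median of all 12792 genes (0.15, 0.04 and -0.10 from left to right), and Nfkb2 is the 1 filled point outside the 8 genes.

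Genes with the most similar course over the 9 arrays were found by the root mean square difference between profiles, each centred on its own mean. Predicted genes, RIKEN clones and genes named only by a sequence number were left out of this ranking. Birc2 was itself the third closest gene to Casp4 (0.15 log2, against an SD of 0.53 for Casp4 over the 9 arrays), after Themis, a T cell signalling protein (0.14), and Ppm1d, a phosphatase of the DNA damage response (0.15). Closest to Birc2 were Zc3h12d, a regnase-family gene (0.11), Baiap3 (0.13) and Itgb8, the integrin β8 chain (0.13), against an SD of 0.48. Closest to Apaf1 were Trerf1 (0.21), Klk1b27 (0.21), which has near-identical relatives, and Hells, a chromatin remodeller (0.23), against an SD of 0.76. In WT, Klk1b27 averaged 2.93 and Hells 2.37, below the array medians. The measure is not scaled to the spread of each gene. Within the 8 genes, Casp4 and Birc2 were the closest pair, and Apaf1 and Casp6 the farthest apart (0.94).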

How the data were processed

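Per the submitters' processing notes, RMA produced the deposited log2 values from amplified, biotin-labelled RNA on Affymetrix mouse Gene ST2.0 arrays. RMA corrects background, makes probe values alike in distribution between arrays and summarises probes. The deposited feature values still differed in spread between arrays, with the largest SDs on Y3 arrays 1 and 3. No version, annotation or build is stated for it in the sources used here. Values from 0.115 to 14.05 showed the log2 scale. The table held 39137 features, of which the platform annotation pairs 23521 with 1 gene. The brightest feature of each gene was kept, and gene identifiers were checked against GRCm38.p6 (23328 matched, 0 symbols changed).

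Differences were fitted with limma 3.58.1 in R 4.3.3 on all 9 arrays (group means, no block, 10.8 degrees of freedom), with p-values adjusted by Benjamini-Hochberg over 12792 genes in each comparison and a threshold of 0.05. A gene was said to rise or fall only if it passed. Ratios of member pairs were tested by exact permutation (scipy 1.17.1). The number of arrays limits the precision: the 95% interval of the median gene reached 0.45 log2 to either side.

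All 8 members were named. Of the other listed cell death genes, those that passed were named, with Xiap, Cycs and Cflar and genes needed for counts of 5 or fewer. Those at an unadjusted p under 0.05 against WT were named too, as were the 3 nearest profiles of each member that passed. Members and lists were chosen with earlier results of these data known. Markers of B cells, CD8, γδ and NK cells, stroma and granulocytes were also read: their list means in Y3/CD103-/-, Y3 and WT were 3.72, 3.51 and 3.92, then 4.46, 4.43 and 4.28, then 3.44, 3.36 and 3.52, then 2.26, 2.00 and 2.35.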

Additional observations from a re-analysis of the deposited data

Results flagged for a closer look

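Cycs, which encodes cytochrome c, lay above the WT mean on all 3 Y3 arrays and below it on all 3 Y3/CD103-/- arrays. The margins were in part very small, and both groups overlapped WT. Y3 array 2 read 8.0705 and Y3/CD103-/- array 1 read 8.0594, against a WT mean of 8.0635 and WT arrays from 8.0404 to 8.0838. The difference between Y3/CD103-/- and Y3 was -0.13 log2 and did not pass in limma (adjusted p = 0.780). Groups of 3 arrays are too small for a test of single outlying arrays.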

How the results depend on the processing

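The 6 calls among the 8 genes gave 114 values under 19 alternatives, of which 73 still passed, 41 no longer did and 0 changed sign. Of the 342 values of differences that had not passed, 341 again did not and 1 did (Casp1 in Y3, with a variance trend). In Y3 against WT, 101 genes were called. The count was 52 with no filter on dim genes, 332 with a variance trend, 346 with array weights, 63 with only the 2 groups compared in the fit, 12 with Y3 arrays 1 and 3 averaged and 8 to 119 with 1 array left out. The count among the 8 genes, 3, was 0 with those arrays averaged and 0 to 3 with 1 array left out, with 0 without Y3 array 1 or Y3 array 3. In Y3/CD103-/- against WT, 107 genes were called, against 54, 303, 60, 17 and 62 under the first 5 of these settings and 28 to 70 with 1 array left out. The count among the 8 genes, 3, was 1 (Apaf1) with no filter, array weights, only the 2 groups, the averaged arrays, or any 1 array left out. In Y3/CD103-/- against Y3, the 1 call became 3 with the mean of several features per gene, 4 with a variance trend, 9 with array weights and 1 to 2 with 1 array left out, and the count among the 8 genes stayed 0. Averaging the Y3 arrays and centring on tested genes were chosen after seeing the data. Fewer samples enter the fits with arrays left out or averaged. Otherwise the cause was not tested.

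Replicate numbers did not pair the arrays: deviations from group means of same-numbered arrays correlated at -0.04 to 0.11 over genes, and not every array correlated best with its own number. With the replicate number as a block, 54 genes were called in Y3 (3 of the 8) and 55 in Y3/CD103-/- (1 of the 8, Apaf1), and Casp4 and Birc2 stood at adjusted p = 0.0627 and 0.0667 there.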
